A study of Arabidopsis thaliana with 51 samples.

Results

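A set of 38 probe sets was higher in wild-type Arabidopsis seedlings after 2 h of the bacterial peptide elf18 and was not higher after 2 h of the plant peptide Pep2. They were picked from 14568 probe sets that reached 5 on the log2 scale on at least 3 arrays. The choice used group means on that scale. The mean after 2 h of elf18 had to exceed the untreated mean by at least 1, which is 2-fold, and the mean after 2 h of Pep2 could exceed it by at most 0.25. A single gene is annotated for 15 of the 38, and the other 23 are named here by their probe set. By the same thresholds 146 probe sets were higher at 2 h with Pep2 and not with elf18, and 1001 were higher with both.

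The study profiled whole seedlings on 51 ATH1 microarrays from Affymetrix, with 3 biological replicates in each of 17 groups. The peptide dose was 1 µM. The receptor mutant efr-1 (efr) was sampled after 10 h of elf18 and untreated, at 0 h. The ein2-1 mutant (ein2) was sampled at 0 h, after 2 h and 10 h of elf18, and after 2 h of Pep2. The double receptor mutant pepr1-1 pepr2-3 (pepr1 pepr2) and the co-receptor mutant bak1-3 (bak1) were each sampled at 0 h and after 2 h and 10 h of Pep2. Wild type (WT) was sampled at 0 h and after 2 h and 10 h of each peptide. No group was kept for 2 h or 10 h without peptide, so elapsed time and peptide cannot be told apart in a comparison with 0 h. The titles number the arrays, and WT and ein2 at 2 h of elf18 carry 62 to 67, against 16 to 21 for both lines at 2 h of Pep2 and 1 to 6 for both at 0 h. At 10 h WT carries 31 to 33 with elf18, against 53 to 55 with Pep2. The labels do not say what the numbers stand for, so a difference between sets of arrays and the difference between the peptides cannot be told apart at 2 h or at 10 h.

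The peptide elf18 is the N-terminal stretch of bacterial elongation factor Tu and is perceived at the plant cell surface by the receptor kinase EFR. Pep2 is cut from a plant precursor protein, is taken as a signal of damage, and binds PEPR1 and PEPR2, which are receptor kinases too. Both kinds of receptor recruit the co-receptor kinase BAK1 and start calcium influx, an oxidative burst, MAP kinase activation and transcription of overlapping sets of defence genes. EIN2 is a membrane protein required for the response to ethylene, a gas made during these immune responses.

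The EFR transcript checked the efr line. It lay at 2.17 ± 0.01 (SD, n = 3) in efr after 10 h of elf18, against 6.94 ± 0.19 in WT after 10 h of elf18, on the log2 scale. The lowest value on every array is 2.08, with 27.4% of the table no more than 0.1 above it, so a difference from a group at that level depends on the authors' background correction. The lowest correlation between replicate arrays was 0.992. Of 12 photosynthesis genes that mark shoots 2 have a probe set annotated to that gene alone, LHCB4.2 and RCA. Their group medians ran from 11.77 (WT, 10 h of elf18) to 14.63 (efr, 0 h). In these medians all groups at 10 h lay below all groups at 0 h and 2 h. Of 10 root markers 3 have such a probe set, with group medians of 6.88 (bak1, 10 h of Pep2) to 8.42 (pepr1 pepr2, 2 h of Pep2). The other markers may be on the array without such an annotation. In whole seedlings fewer cells of a type and less RNA per cell cannot be told apart, and the part of these marker shifts in the values at 10 h was not tested.

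The values that chose the 38 members are given as a description. After 2 h of elf18 they exceeded untreated WT by a median of 1.39 on the log2 scale, from 1.02 to 3.48. After 2 h of Pep2 the median difference from untreated WT was 0.09, from -1.08 to 0.24. The level after 2 h of elf18 exceeded that after 2 h of Pep2 by a median of 1.50, from 0.79 to 3.47. For 37 of the 38 all arrays at 2 h of elf18 lay above all untreated arrays, as for 25.8% of all probe sets tested, and for 36 they lay above all arrays at 2 h of Pep2, as for 21.4%, and nothing is read from these shares because the rule used these arrays. The members nearest the elf18 threshold were BRH1 and AT4G19520 at 1.02 and 252956_at at 1.03, and just outside were AT3G23840 at 0.98, AT3G56260 at 0.96 and AT1G69526 at 0.95. Nearest the Pep2 threshold were 254905_at, 248090_at and 257262_at, each at 0.24, while AT5G67390, 255690_at and SHB1 missed it at 0.252, 0.254 and 0.255. When each of the 9 arrays behind the rule was left out in turn, 34 to 49 probe sets met it, and 18 of the 38 met it every time.

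The levels in untreated WT are also part of the choice, since a low start leaves more room for a 2-fold rise, and are given as a description. Their median was 5.13 on the log2 scale, and 9 of the 38 lay below 3. After 2 h of elf18 none of the 38 lay below 3 in WT, and their median was 6.67. Untreated ein2 lay at least 1 from untreated WT in 10 of the 38 members, untreated efr in 3, and untreated pepr1 pepr2 and bak1 in 0. Among the 10 in ein2, ATL8, AT1G19900, AT2G15830 and 251017_at were lower and THI2.2, AT5G12420 and 257262_at higher. The widest gap was that of 251017_at, at 2.53, 2.08 and 2.36 in untreated ein2 against 8.99, 9.05 and 8.67 in untreated WT. In untreated ein2 14 members lay below 3. These gaps carry no test because untreated WT was used in the choice.

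**Figure D1:**
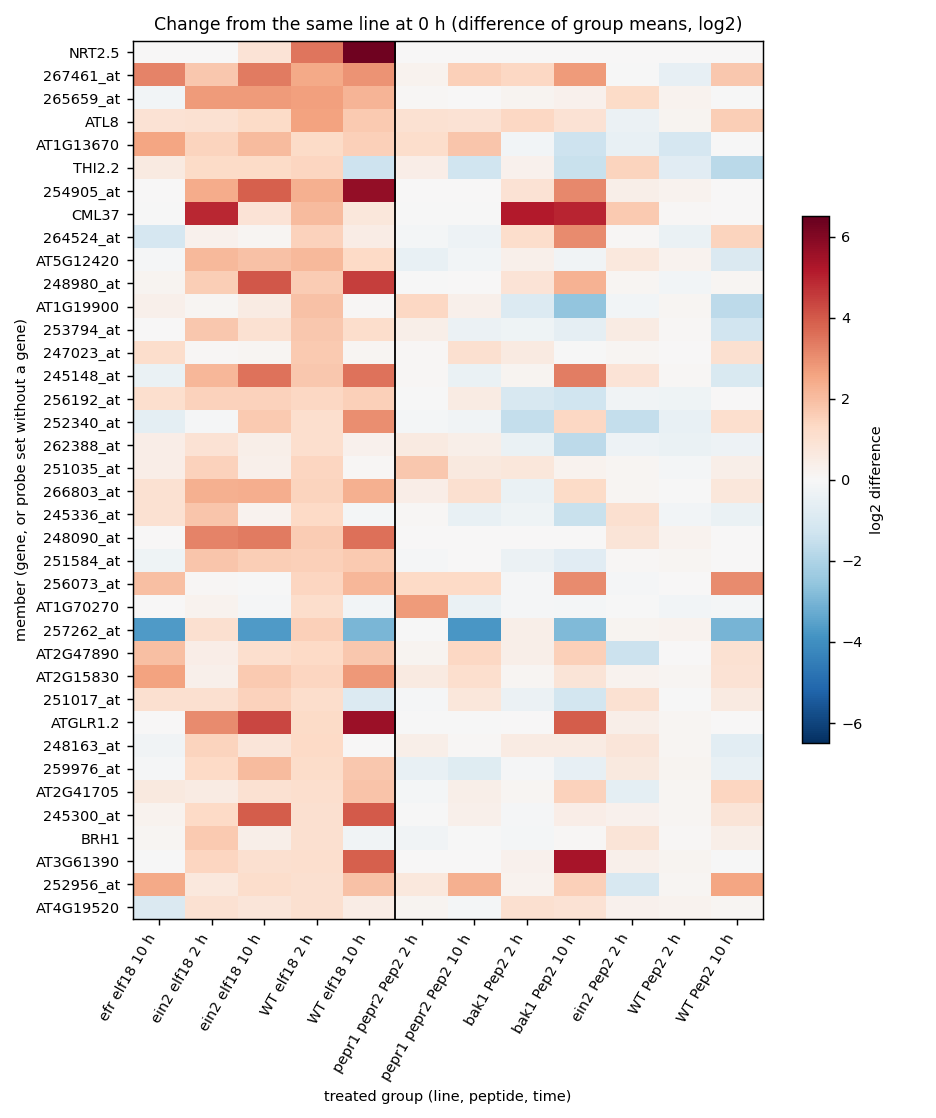
The colour gives the difference of group means from the same line at 0 h on the log2 scale, for 38 members (down the page, in falling order of elf18 minus Pep2 in WT at 2 h) and 12 treated groups (across, elf18 left of the line and Pep2 right of it). The WT columns at 2 h chose the members, and in the ein2 column at 2 h of elf18 the differences run from -0.06 (252340_at) to 4.92 (CML37).

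The ein2 mutant gave a comparison at 2 h that used none of the arrays behind the 2 h thresholds, and each of the 38 members reached the floor of 5 without the ein2 arrays compared. There 25 of the 38 members rose after elf18 against untreated ein2, where 8.83% of all probe sets rose, and none fell, where 7.11% fell. A rise or fall means an adjusted p under 0.05 in limma, a linear model fitted to all probe sets, with a difference of at least 1 on the log2 scale. The median over the 38 was 1.36, against -0.07 over all probe sets. After 2 h of Pep2 5 members rose against untreated ein2, where 10.6% of all probe sets rose, and 3 fell, where 10.1% fell, with a median of 0.17 against -0.13. These comparisons share the untreated ein2 arrays, so the peptides were also compared directly.

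Set against Pep2, 23 of the 38 members were higher and none lower in ein2 after 2 h of elf18, where 4.48% of all probe sets were higher and 4.37% lower. The median difference was 1.25, against 0.07 over all probe sets. For 27 members all arrays at 2 h of elf18 lay above all arrays at 2 h of Pep2, as for 26.3% of all probe sets. Among the 146 probe sets that responded to Pep2 and not elf18 in WT, none was higher with elf18 in ein2 and 108 were lower. Among the 1001 that responded to both, 103 were higher and 158 lower. The 15 members that did not pass here were NRT2.5, THI2.2, BRH1, AT4G19520, AT1G19900, AT1G70270, AT2G15830 and 8 unannotated probe sets, with differences from -0.21 (THI2.2) to 0.90 (BRH1).

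**Figure D2:**
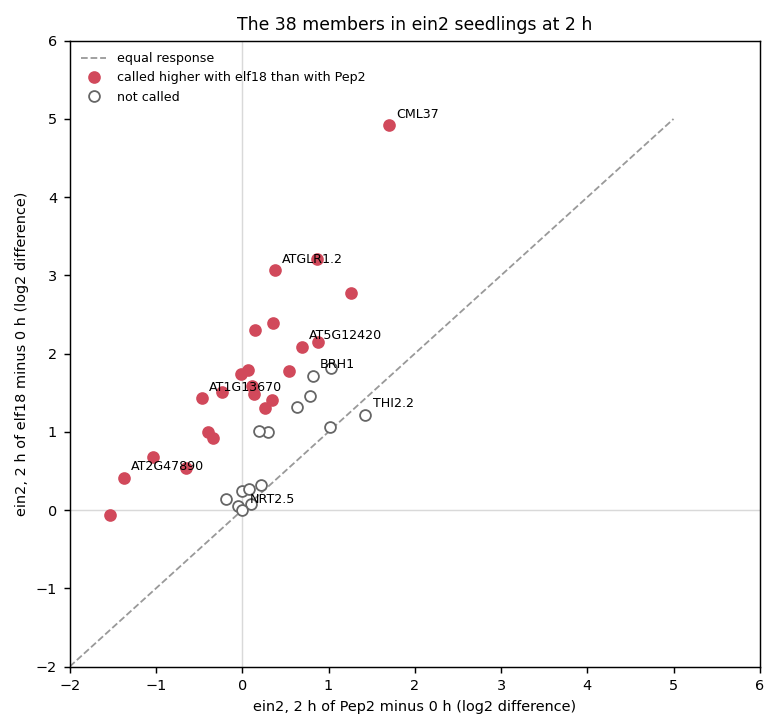
Each point is 1 of the 38 members in ein2 at 2 h: the vertical axis is the log2 difference of elf18 from 0 h and the horizontal axis that of Pep2 from 0 h, with filled points for the 23 members higher with elf18 than with Pep2. CML37 stands apart at 4.92 with elf18 and 1.70 with Pep2, and THI2.2 lies at 1.22 and 1.43.

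Of the transport proteins, NRT2.5 encodes a high-affinity nitrate transporter, best known from nitrogen-starved plants. In WT its level was 5.87, 4.91 and 5.91 on the log2 scale after 2 h of elf18, against 2.08, 2.11 and 2.08 after 2 h of Pep2 and 2.08 on all 3 untreated arrays. The elf18 arrays were far above all the others, which lay within 0.1 of the lowest value of the table. In ein2 it stayed at 2.09, 2.08 and 2.09 after 2 h of elf18, the same level as untreated ein2. At 10 h of elf18 it was 2.12, 4.32 and 2.54 in ein2, against 8.49, 7.82 and 8.95 in WT. No ein2 array reached the lowest WT array. In efr it was 2.08, 2.08 and 2.12 after 10 h of elf18. NRT2.5 reached 5 on 5 arrays, 2 of WT at 2 h of elf18 and 3 of WT at 10 h, and so entered the set only through the WT arrays at 10 h of elf18. Its comparisons with those arrays are therefore given without a test. Every array of WT, ein2, pepr1 pepr2 and bak1 treated with Pep2 lay at 2.11 or below.

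ATGLR1.2 encodes a glutamate receptor-like channel, of a family that conducts cations across plant membranes. In WT it lay at 2.56, 4.69 and 2.80 after 2 h of elf18, against 2.08, 2.16 and 2.32 after 2 h of Pep2, with 1 elf18 array well above the other 2, and it met the rule in 8 of the 9 fits that left out an array. In ein2 it lay at 6.01, 5.25 and 4.17 after 2 h of elf18, against 2.08, 2.58 and 2.71 after 2 h of Pep2. All ein2 elf18 arrays were above all ein2 Pep2 arrays, with a difference of 2.69 (SE 0.32, limma adjusted p = 1.9e-08). At 10 h of elf18 it lay at 2.08 on all efr arrays, against 7.37, 7.37 and 8.23 in WT, a difference of -5.58 (SE 0.32, limma adjusted p = 1.1e-17). AT2G41705, annotated to the CrcB family of fluoride export channels, was higher with elf18 than with Pep2 in ein2 at 2 h, at 6.53 ± 0.04 against 5.34 ± 0.24 (SD, n = 3 each, limma adjusted p = 2.6e-08). The untreated ein2 mean lay between them, at 5.99 ± 0.38, and the elf18 difference from untreated was not called.

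CML37 encodes a calmodulin-like protein, a calcium sensor of the EF-hand type. In WT it lay at 4.31, 5.25 and 2.93 after 2 h of elf18, against 2.13, 2.13 and 2.27 after 2 h of Pep2. In ein2 the values were 7.31, 7.59 and 6.21 after 2 h of elf18, 3.45, 3.42 and 4.57 after 2 h of Pep2, and 2.12 on each untreated array. The 3 ein2 groups did not overlap. Elf18 exceeded Pep2 in ein2 by 3.22 (SE 0.46, limma adjusted p = 6.9e-07), the largest such difference among the members. By 10 h of elf18 most arrays were near the lowest value again, with 4.85, 2.12 and 2.12 in ein2 and 2.32, 2.13 and 4.09 in WT, and 1 array in each line stood apart from the other 2.

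**Figure D3:**
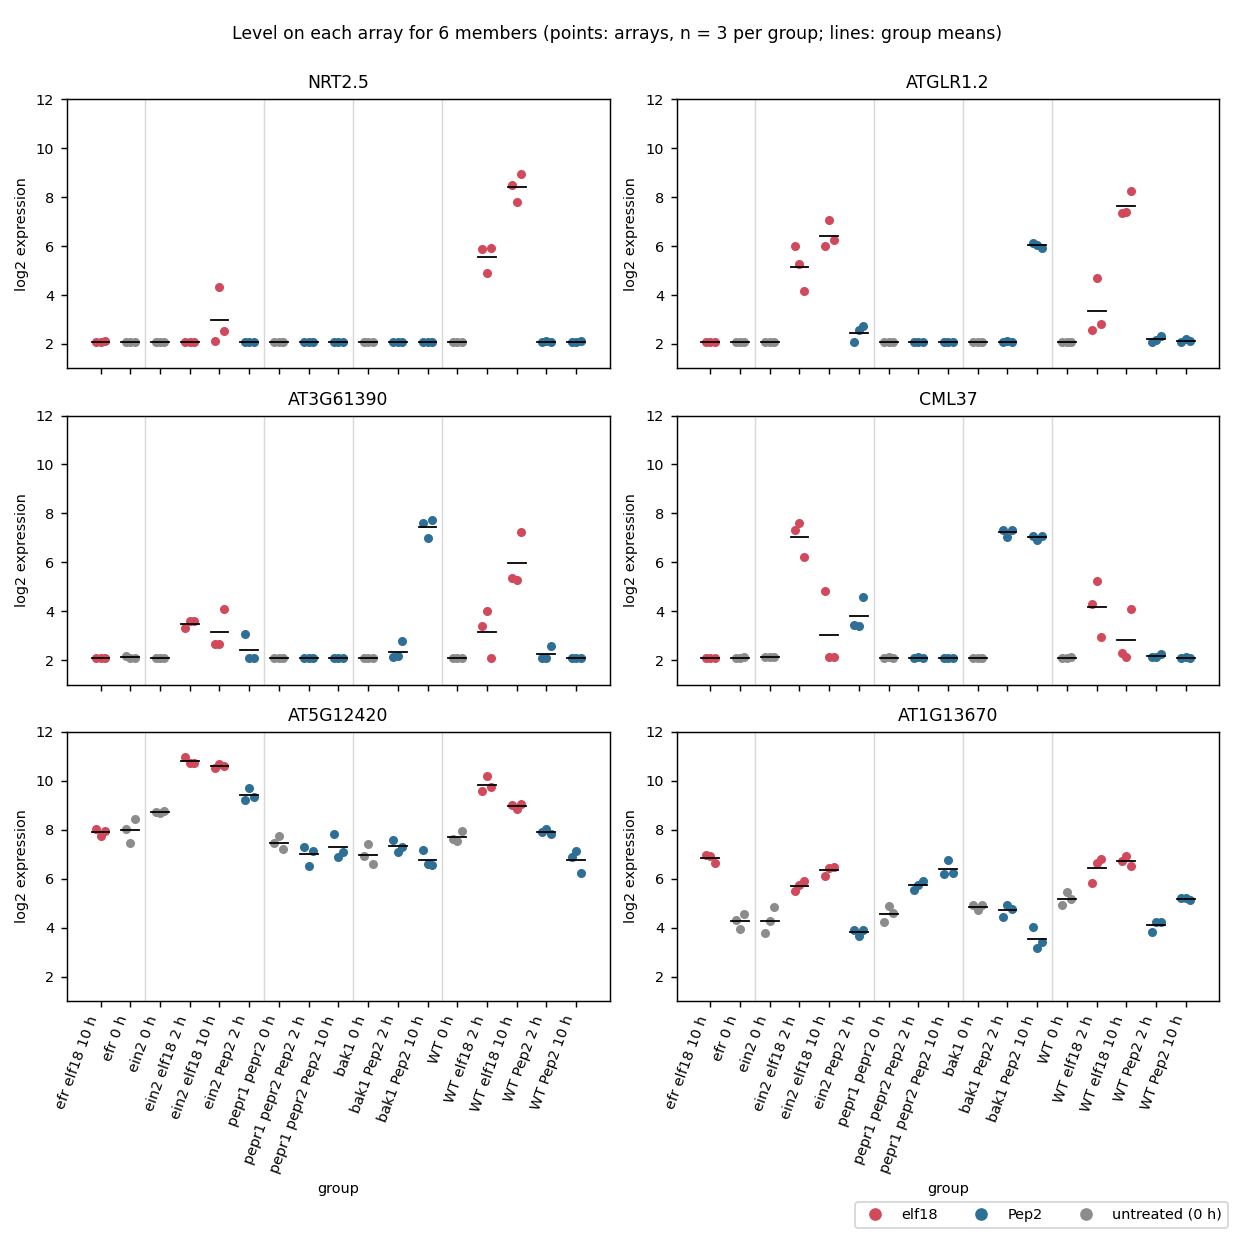
Points are single arrays and lines the means of 3 arrays, on the log2 scale, for 6 members in all 17 groups. NRT2.5 leaves the lowest value in WT and partly in ein2 after elf18, CML37 is highest in bak1 after Pep2 and in ein2 after 2 h of elf18, and AT3G61390 is highest in bak1 after 10 h of Pep2.

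ATL8, BRH1 and AT3G61390 are annotated to families of ubiquitin ligases, enzymes that mark proteins for turnover. ATL8 encodes a RING-H2 ligase of the ATL family and lay at 7.09, 8.47 and 7.49 in WT after 2 h of elf18, against 5.17, 5.66 and 4.88 after 2 h of Pep2. The groups did not overlap. In ein2 its values were 3.62, 3.71 and 3.71 after 2 h of elf18, against 2.21, 2.57 and 2.08 after 2 h of Pep2, a difference of 1.39 (SE 0.38, limma adjusted p = 0.0046). Its levels in ein2 were thus below those of untreated WT, at 5.40, 5.57 and 4.23, under both peptides. Against untreated ein2 the elf18 difference was 1.00 (limma adjusted p = 0.028), and it missed the test under 6 of the alternative settings or left-out arrays.

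BRH1 is a RING-H2 gene named for its response to brassinosteroid hormones. In ein2 it was 9.47, 9.56 and 9.59 after 2 h of elf18, against 8.41, 8.69 and 8.80 after 2 h of Pep2 and 7.87, 7.64 and 7.95 untreated. The 3 groups did not overlap, but elf18 exceeded Pep2 by 0.90 (SE 0.12, limma adjusted p = 3.2e-07), under the size required. The rise with elf18 against untreated ein2 was 1.72 (SE 0.12, limma adjusted p = 1.3e-14). AT3G61390, annotated as a U-box protein, lay at 3.41, 4.00 and 2.1 in WT after 2 h of elf18, against 2.1, 2.09 and 2.56 after 2 h of Pep2, and these groups overlapped. In ein2 it lay at 3.32, 3.59 and 3.58 after 2 h of elf18, against 3.08, 2.1 and 2.1 after 2 h of Pep2, without overlap (1.07, SE 0.36, limma adjusted p = 0.019). That call was lost when any of 4 single arrays was left out.

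Of the 2 annotated defence genes, THI2.2 encodes a thionin, a small antimicrobial peptide, and AT4G19520 an intracellular immune receptor of the TIR-NBS-LRR class. THI2.2 lay at 7.94, 8.73 and 8.95 in ein2 after 2 h of elf18, against 8.49, 8.93 and 8.82 after 2 h of Pep2 and 6.58, 7.74 and 7.64 untreated. The peptides overlapped in ein2, and THI2.2 rose after both, by 1.22 with elf18 (SE 0.38, limma adjusted p = 0.0067) and by 1.43 with Pep2 (SE 0.38, limma adjusted p = 0.0015). Without replicate 1 of untreated ein2 the elf18 difference was 0.85, short of the size required. In WT the 2 h values had been 7.70, 6.54 and 7.57 with elf18, against 4.44, 5.27 and 5.79 with Pep2. For AT4G19520 the ein2 difference of elf18 from untreated was 0.99 (SE 0.28, limma adjusted p = 0.0032), just short of the size required.

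Among enzymes, AT5G12420 is annotated as a wax ester synthase-like acyltransferase, of a family that makes the wax esters of the plant surface. In ein2 it lay at 10.99, 10.73 and 10.71 after 2 h of elf18, against 9.20, 9.70 and 9.33 after 2 h of Pep2 and 8.72, 8.70 and 8.75 untreated. The 3 groups did not overlap, and elf18 exceeded Pep2 by 1.40 (SE 0.24, limma adjusted p = 1.5e-05). AT1G19900, a glyoxal oxidase-related gene, lay at 7.67, 7.45 and 7.65 in WT after 2 h of elf18, against 5.41, 5.64 and 6.38 after 2 h of Pep2. In ein2 it lay at 3.79, 4.28 and 4.28 after 2 h of elf18, against 4.49, 3.48 and 3.40 after 2 h of Pep2, with overlap (0.32, SE 0.33, limma adjusted p = 0.49).

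AT2G47890 encodes a B-box zinc finger protein, of a family of transcription regulators tied to light signalling. In ein2 it lay at 7.78, 7.98 and 8.07 after 2 h of elf18, against 6.14, 6.02 and 6.30 after 2 h of Pep2 and 7.61, 7.35 and 7.62 untreated. The lowest group was Pep2, which fell by 1.37 against untreated ein2 (SE 0.15, limma adjusted p = 4e-10), while the elf18 difference from untreated was 0.42 (SE 0.15). Elf18 exceeded Pep2 by 1.79 (SE 0.15, limma adjusted p = 2.7e-12). The unannotated 252956_at and 252340_at also fell with Pep2 in ein2, by 1.03 (SE 0.13, limma adjusted p = 1e-08) and by 1.53 (SE 0.39, limma adjusted p = 0.0011), without a rise after elf18. The fall of 252956_at was lost under quantile normalisation, under median centring and without replicate 2 of ein2 at 2 h of Pep2.

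Of the 3 genes without a role given here, AT1G13670 lay at 5.51, 5.74 and 5.90 in ein2 after 2 h of elf18, against 3.89, 3.67 and 3.89 after 2 h of Pep2. The groups did not overlap, and the difference was 1.90 (SE 0.23, limma adjusted p = 2.6e-08). AT2G15830 and AT1G70270 differed by 0.11 (SE 0.38, limma adjusted p = 0.86) and 0.25 (SE 0.22, limma adjusted p = 0.4) between the peptides in ein2. Of the 23 unannotated members 15 were higher with elf18 than with Pep2 in ein2, from 1.05 (245300_at) to 2.34 (248090_at).

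At 10 h the peptides were compared in WT, on arrays that the thresholds at 2 h did not use. After elf18 20 of the 38 members were higher than after Pep2, where 7.98% of all probe sets were higher, and 1 was lower, where 7.08% were lower. The median difference was 1.34, against -0.02 over all probe sets. Without NRT2.5, which reached the floor of 5 only through these elf18 arrays, 19 of 37 were higher and the median was 1.14. For 25 members all elf18 arrays lay above all Pep2 arrays, as for 28.5% of all probe sets. Of the 1001 probe sets that rose with both peptides at 2 h, 569 were higher with elf18 at 10 h and 26 lower, with a median of 1.16. A stronger elf18 level at 10 h was therefore also frequent outside the 38 members. Of the other members, 254905_at (5.71, SE 0.43) and ATGLR1.2 (5.53, SE 0.32) had the largest differences, and the lower member was 251017_at (-1.47, SE 0.36, limma adjusted p = 0.00076).

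The comparisons in ein2 at 2 h and in WT at 10 h share no array. Both found elf18 above Pep2 for 16 members, which are 16 of the 23 in ein2 and 16 of the 20 in WT, and for 209 probe sets in all (1.43% of those tested). Members that passed in ein2 at 2 h but not in WT at 10 h included CML37 (0.75, SE 0.46), ATL8 (0.09, SE 0.38), AT2G41705 (0.46, SE 0.15) and AT2G47890 (0.76, SE 0.15). Against untreated WT, as a description only, the members' median difference at 10 h was 1.70 with elf18 and 0.04 with Pep2.

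The receptor mutant showed which levels at 10 h of elf18 were lower without the EFR transcript. In efr 18 of the 38 members were lower than in WT at 10 h of elf18, where 12.8% of all probe sets were lower, and 2 were higher, where 14.4% were higher. The median difference was -0.92, against 0.05 over all probe sets. Without NRT2.5 17 of 37 were lower and the median was -0.90. For 23 members all WT arrays lay above all efr arrays, as for 33.8% of all probe sets. Among the 1001 probe sets that rose with both peptides at 2 h, 817 were lower in efr and the median was -2.09. Among the 37 members without NRT2.5, 254905_at, ATGLR1.2, 248980_at and 245300_at had the lowest differences, from -5.73 to -4.28.

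AT3G61390 lay at 2.1, 2.1 and 2.09 in efr after 10 h of elf18, against 5.38, 5.30 and 7.25 in WT, without overlap (-3.88, SE 0.36, limma adjusted p = 3.6e-12). AT5G12420 lay at 8.01, 7.73 and 7.95 in efr after 10 h of elf18, against 9.01, 8.86 and 9.07 in WT (-1.08, SE 0.24, limma adjusted p = 0.00015), and the call was lost without replicate 2 of efr at 10 h, since the difference then fell under the size required. ATL8 lay at 4.80, 5.21 and 4.67 in efr after 10 h of elf18, against 6.98, 6.89 and 6.40 in WT (-1.87, SE 0.38, limma adjusted p = 5.4e-05). In these 3 genes every efr array was below every WT array. ATL8 was already lower in untreated efr than in untreated WT, at 3.97 ± 0.31 against 5.07 ± 0.73 (SD, n = 3 each). AT3G61390 and AT5G12420 were not, with untreated means of 2.12 in efr against 2.09 in WT and of 7.97 against 7.70. The 2 members higher in efr were THI2.2 (1.65, SE 0.38, limma adjusted p = 0.00021) and 251017_at (1.50, SE 0.36, limma adjusted p = 0.00038).

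**Figure D4:**
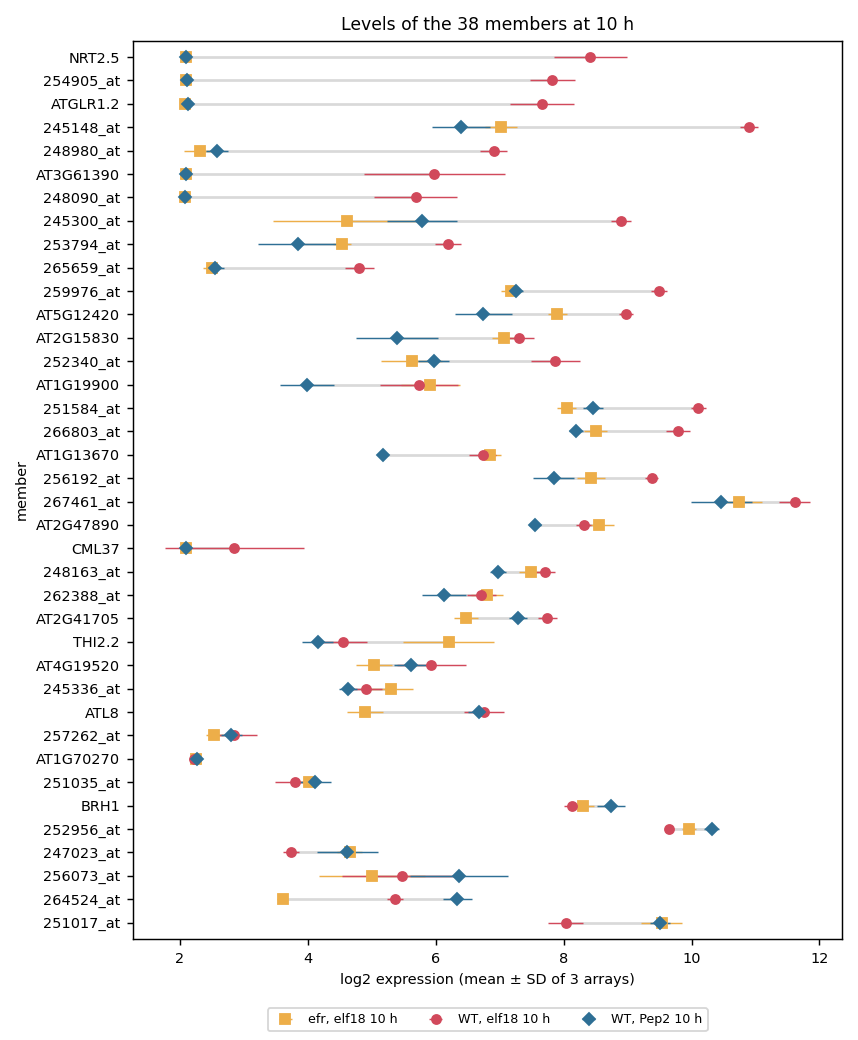
Mean ± SD of 3 arrays on the log2 scale for the 38 members at 10 h, in efr with elf18 (squares), WT with elf18 (circles) and WT with Pep2 (diamonds). For NRT2.5, 254905_at, ATGLR1.2, AT3G61390 and 248090_at the efr and Pep2 means lie at 2.08 to 2.13 and the WT elf18 means at 5.68 or above.

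Some members rose in efr although the EFR transcript lay near the lowest value. After 10 h of elf18 10 of the 38 rose against untreated efr, where 8.09% of all probe sets rose, and 2 fell, where 7.12% fell. The share of members that rose was higher than the share over all probe sets, while their median of 0.15 was near the 0.01 over all. AT1G13670 lay at 6.95, 6.94 and 6.63 in efr after 10 h of elf18, against 4.32, 3.93 and 4.55 untreated (2.57, SE 0.23, limma adjusted p = 7.5e-12). AT2G15830 and AT2G47890 rose by 2.63 (SE 0.38, limma adjusted p = 2.7e-07) and by 1.97 (SE 0.15, limma adjusted p = 6.2e-14). None of these 3 genes differed by the required size between efr and WT at 10 h of elf18, with differences of 0.11, -0.24 and 0.24. Their means in pepr1 pepr2 were also higher after 10 h of Pep2 than untreated. They went from 4.57 to 6.39 for AT1G13670, from 4.54 to 5.65 for AT2G15830 and from 6.90 to 8.25 for AT2G47890. In bak1 after 10 h of Pep2 AT1G13670 went the other way, from 4.86 to 3.53. The unannotated 257262_at fell by 3.70 in efr (SE 0.37, limma adjusted p = 7.6e-11), and also in ein2 after 10 h of elf18 and in pepr1 pepr2 and bak1 after 10 h of Pep2, by 2.86 to 3.77.

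In ein2 22 members rose and 1 fell after 10 h of elf18 against untreated ein2, where 12.5% of all probe sets rose and 12.8% fell. Set against WT at 10 h of elf18, 11 members were lower in ein2, where 2.66% of all probe sets were lower, and 2 were higher, where 3.66% were higher. The median difference was -0.37, against -0.03. Without NRT2.5 and 248980_at, which reached the floor only through arrays compared here, 10 of 36 were lower and 2 higher. The lower members included ATL8, at 4.58, 3.55 and 3.69 in ein2 after 10 h of elf18 against 6.98, 6.89 and 6.40 in WT (-2.82, SE 0.38, limma adjusted p = 3.6e-07). AT2G15830 lay at 4.46, 4.71 and 4.08 in ein2 after 10 h of elf18, against 7.06, 7.31 and 7.53 in WT (-2.88, SE 0.38, limma adjusted p = 1.7e-07). Neither gene's groups overlapped, but both were already lower in untreated ein2 than in untreated WT, at 2.68 ± 0.48 against 5.07 ± 0.73 for ATL8 and 2.73 ± 0.43 against 4.46 ± 0.46 for AT2G15830 (SD, n = 3 each). NRT2.5 was at the lowest value in both untreated lines.

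The higher members in ein2 were THI2.2 and AT5G12420. THI2.2 lay at 7.68, 9.08 and 8.94 in ein2 after 10 h of elf18, against 4.40, 4.26 and 4.98 in WT (4.02, SE 0.38, limma adjusted p = 1e-10). AT5G12420 lay at 10.54, 10.68 and 10.59 in ein2 after 10 h of elf18, against 9.01, 8.86 and 9.07 in WT (1.62, SE 0.24, limma adjusted p = 1.7e-06). Both were also higher in untreated ein2 than in untreated WT, at 7.32 ± 0.64 against 5.88 ± 0.03 for THI2.2 and 8.72 ± 0.03 against 7.70 ± 0.23 for AT5G12420 (SD, n = 3 each). The responses to 10 h of elf18 in efr and ein2 were compared with their sign. That in efr was lower for 14 members, where 11.1% of all probe sets were lower. It was higher for 3, where 13.4% were higher.

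Pep2 was also applied to the receptor and co-receptor mutants. In pepr1 pepr2 after 2 h of Pep2 5 of the 38 rose against untreated, where 1.42% of all probe sets rose, and none fell, where 2.11% fell. The 5 were AT1G70270, AT1G19900, AT1G13670, 251035_at and 256073_at. AT1G70270 reached the floor of 5 on these 3 treated arrays alone, so its rise is given without a test, and 4 of the other 37 rose. AT1G70270 lay at 5.15, 5.25 and 5.89 in pepr1 pepr2 after 2 h of Pep2, against 3.45, 2.26 and 2.26 untreated. These were its highest values on any array, above the 4.05, 2.87 and 3.70 of WT after 2 h of elf18. AT1G19900 and AT1G13670 rose by 1.36 (SE 0.33, limma adjusted p = 0.0025) and by 1.17 (SE 0.23, limma adjusted p = 0.00028). The count of 5 fell to 3 without untreated replicate 1 or 3, and to 3 with only these 2 groups in the fit.

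In bak1 5 members rose and 2 fell after 2 h of Pep2 against untreated bak1, where 10.6% of all probe sets rose and 9.38% fell. CML37 lay at 7.32, 7.04 and 7.33 in bak1 after 2 h of Pep2, against 2.08 on all untreated bak1 arrays (5.15, SE 0.46, limma adjusted p = 3.1e-12). Its WT arrays at 2 h of Pep2 lay at 2.13 to 2.27, so that the level in bak1 was far above the one that placed CML37 in the set, a gap given without a test because the choice used those WT arrays. The other 4 were ATL8, AT4G19520, 264524_at and 267461_at, with differences of 1.06 to 1.34. Without replicate 2 of bak1 at 2 h of Pep2 the calls of ATL8, AT4G19520 and 264524_at were lost, and those of AT4G19520 and 264524_at also each without 1 untreated array. At 10 h of Pep2 14 members rose and 8 fell in bak1, where 15.1% of all probe sets rose and 16.9% fell.

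At 10 h of Pep2 bak1 and pepr1 pepr2 could be set against WT arrays that the thresholds at 2 h did not use. In bak1 9 members were higher than in WT, where 7.00% of all probe sets were higher, and 5 were lower, where 9.14% were lower, with a median of 0.08. AT3G61390 lay at 7.61, 7.01 and 7.72 in bak1 after 10 h of Pep2, against 2.09 on each WT array (5.36, SE 0.36, limma adjusted p = 2.2e-15). CML37 lay at 7.07, 6.92 and 7.07 in bak1 after 10 h of Pep2, against 2.08, 2.12 and 2.09 in WT (4.93, SE 0.46, limma adjusted p = 2.1e-11). ATGLR1.2 lay at 6.14, 6.04 and 5.91 in bak1 after 10 h of Pep2, against 2.08, 2.19 and 2.12 in WT (3.90, SE 0.32, limma adjusted p = 9e-13). In all 3 genes the WT arrays treated with Pep2 were at or near the lowest value of the table while bak1 was not.

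The unannotated 245148_at lay at 10.69, 10.86 and 10.05 in bak1 after 10 h of Pep2, against 6.23, 6.04 and 6.91 in WT (4.14, SE 0.27, limma adjusted p = 8.8e-16), and 254905_at was higher by 3.07 (SE 0.43, limma adjusted p = 1.7e-07). NRT2.5 stayed at 2.08 on all bak1 arrays. Among the lower members were AT1G13670 (-1.64, SE 0.23, limma adjusted p = 2e-07) and 251017_at (-1.77, SE 0.36, limma adjusted p = 6.6e-05). The 146 probe sets that responded to Pep2 and not elf18 in WT at 2 h had 49 higher and 3 lower in bak1 at 10 h of Pep2, and the 1001 that responded to both had 396 higher and 24 lower, so higher levels in bak1 at this time were also found outside the 38 members. The root marker median was lowest in this bak1 group, at 6.88, against 8.08 in WT after 10 h of Pep2. The part of that shift in these values was not tested.

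**Figure D5:**
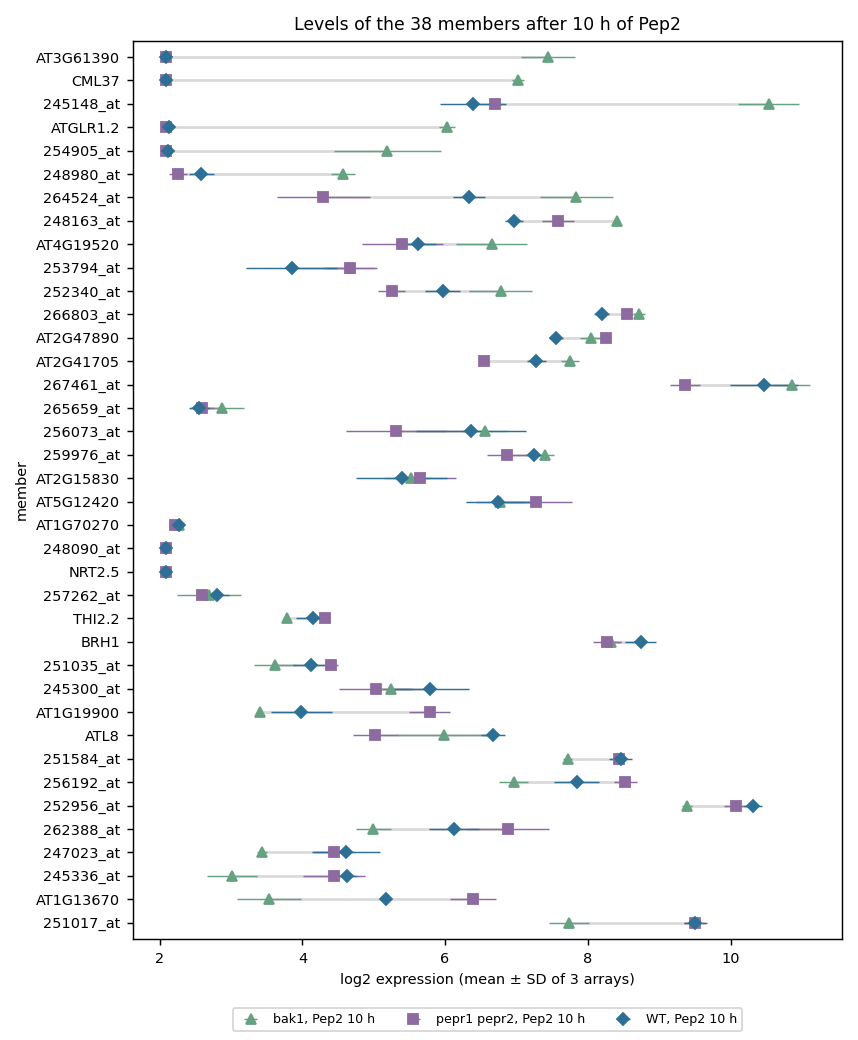
Mean ± SD of 3 arrays on the log2 scale for the 38 members after 10 h of Pep2 in bak1 (triangles), pepr1 pepr2 (squares) and WT (diamonds). AT3G61390 (7.44, against 2.09 in WT) and CML37 (7.02, against 2.09 in WT) head the list, and NRT2.5 lies at the lowest value in all 3 lines.

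In pepr1 pepr2 8 members rose and 2 fell after 10 h of Pep2 against untreated, where 7.21% of all probe sets rose and 7.57% fell. Set against WT at 10 h of Pep2, 2 were higher, where 3.54% of all probe sets were higher, and 3 lower, where 4.63% were lower, with a median of -0.01. The 2 higher were AT1G19900 (1.79, SE 0.33, limma adjusted p = 4.9e-05) and AT1G13670 (1.22, SE 0.23, limma adjusted p = 6.9e-05). AT1G19900 lay at 5.51, 6.09 and 5.74 in pepr1 pepr2 after 10 h of Pep2, against 4.47, 3.76 and 3.73 in WT, without overlap. The 3 lower were 264524_at (-2.04), ATL8 (-1.65) and 267461_at (-1.10). Their means in untreated pepr1 pepr2 were already below those in untreated WT, given as a description. They were 4.63 against 4.90 for 264524_at, 4.09 against 5.07 for ATL8 and 7.81 against 8.70 for 267461_at.

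Lists of known pathways give the setting. List genes were looked up only through probe sets annotated to a single gene. Other list genes may be on the array, also among the 23 unannotated members. Of the pattern-triggered immunity list 9 genes were found this way and tested, and none of them is a member. In ein2 after 2 h of elf18 all 9 rose (median 3.07), but against Pep2 2 were higher and 3 lower (median 0.22), beside a median of 1.25 over the 38 members. At 10 h 8 of the 9 were higher with elf18 than with Pep2 in WT (median 1.79), and all 9 were lower in efr than in WT after elf18 (median -3.75). EFR, which the mutation removes, is 1 of the 9, and the other 8 were lower too. The list for sulfate, phosphate, nitrate and iron supply had 1 gene found this way, NRT2.5 itself. The circadian clock list had 3 genes found this way, which follow time of day. None of the 3 passed between the peptides in ein2 at 2 h (median -0.01) or in WT at 10 h (median -0.13). Against 0 h 2 of the 3 rose at 10 h in efr, ein2, pepr1 pepr2 and bak1 (medians 4.74 to 5.10), and the part of time of day in the members' differences between 10 h and 0 h was not tested.

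The members did not share a single profile. Over the 17 group means the median Pearson correlation between 2 members was 0.30 across 703 pairs, and the members differ in level and share all arrays. Outside the set, the group means of AT1G30890 followed the mean profile of the 38 most closely (Pearson r = 0.94 over 17 groups), then AT2G35910 (r = 0.91), AT5G35730, 263443_at and 247761_at (r = 0.90 each). These values describe group means that share arrays, with the groups that chose the members among them.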

How the data were processed

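The authors deposited one log2 level per probe set and array. GCRMA produced them, per the submitters' processing notes, and no version is given there. GCRMA corrects background and normalises arrays to each other, so levels near 2.08 are compressed. The labels name no genome build, so no positions are given. Of 22810 probe sets 64 controls were left out, and 13513 of the others have 1 annotated gene, 503 several and 8730 none. Arrays have no read depth, and their number limits the precision. Replicates are biological per the labels.

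Probe sets at log2 5 or more on at least 3 arrays were tested. A mean per group was fitted over all 51 arrays with limma 3.58.1 in R 4.3.3 (34 residual and 3.84 prior degrees of freedom), with Benjamini-Hochberg adjustment over all probe sets in each of 15 comparisons. The members and gene lists were chosen with earlier results of these data known. The comparisons of bak1 and pepr1 pepr2 with WT at 10 h of Pep2 were added after values were seen. No p is given where the untreated, elf18 2 h or Pep2 2 h WT arrays enter, or where a member reached the floor of 5 only through the groups compared.

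The rule for named genes took, among members with 1 annotated gene, the 10 with the largest elf18 minus Pep2 difference in WT at 2 h, the 8 largest increases and 4 largest decreases in each main comparison (ein2 at 2 h, and the peptides in WT at 10 h), the 6 lowest and 6 highest in efr against WT, the 3 largest in each other comparison, members on a list, families with 3 or more members, and the 3 probe sets nearest each side of a threshold. It also named EFR and the 5 probe sets closest to the mean member profile. Other unannotated members were named after their values were seen. Alternatives were no filter, a filter at 7, an intensity trend, only the groups compared, a replicate block, quantile normalisation, median centring and leaving out each array. The fit was tested on simulated data. Same-numbered replicates deviated together in every pair only for ein2 at 2 h of Pep2 against 0 h (correlations 0.18 to 0.24). Python 3.11.15 and matplotlib 3.10.9 made the figures.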

Additional observations from a re-analysis of the deposited data

Results flagged for a closer look

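The response to 10 h of elf18 differed between efr and ein2 for 17 members, tested as the difference of the responses in limma. The efr response minus the ein2 response was negative for ATGLR1.2 (-4.35), 245148_at (-3.98), 248980_at (-3.90), 254905_at (-3.89), 245300_at (-3.68), 248090_at (-3.39), 265659_at (-2.98), 252340_at (-2.36), 259976_at (-2.12), AT5G12420 (-1.95), 251584_at (-1.89), AT4G19520 (-1.69), 266803_at (-1.37) and 264524_at (-1.19). A negative value can also mean a fall in efr, as for 264524_at (4.67 ± 0.33 untreated, 3.60 ± 0.09 after 10 h of elf18, SD). Efr means were also lower after elf18, short of the size required, for other members on this list. Among them were AT4G19520 (5.95 ± 0.42 untreated, 5.03 ± 0.28 after elf18) and 252340_at (6.27 ± 0.23 untreated, 5.63 ± 0.48 after elf18). The difference was positive for 256073_at (1.96), 252956_at (1.33) and 247023_at (1.02). The call for 247023_at was lost under quantile normalisation, median centring and without any of 4 single arrays. The calls for 256073_at and 264524_at were each lost without 1 array.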

How the results depend on the processing

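Of 225 calls of a member in a comparison 181 held under every alternative run, 44 were lost under at least 1, and 0 reversed. The 8 calls in ein2 at 2 h of Pep2 against 0 h became 5 without replicate 2 of that treated group (5 to 9 over left-out arrays). The 5 calls in pepr1 pepr2 at 2 h of Pep2 against 0 h became 1 with a filter at 7, which kept 27 of the 38 members, and 3 with only the groups compared (3 to 6 over left-out arrays, 3 without untreated replicate 1 or 3). The filter at 7 also left 11 of the 17 calls in the efr minus ein2 response and 9 of the 14 in bak1 against WT at 10 h of Pep2. The replicate block was fitted over all 51 arrays and so applied to every comparison. With it ein2 at 2 h of Pep2 against 0 h kept 8 calls. The comparison of pepr1 pepr2 with WT at 10 h of Pep2 had 6 in place of 5. The rule found 46 probe sets without the filter, 27 with the filter at 7, 38 after quantile normalisation (37 of them shared with the set) and 39 after median centring (36 shared). Low signal limits 9 members, which were below 3 in untreated WT.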
